A study of Homo sapiens with 9 samples.

Results

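The 9 genes of the YAP and TEAD pathway described here were followed through the 8 libraries of the deposited count table: the secreted proteins CCN1 and CCN2, the nuclear and muscle protein ANKRD1, the feedback regulators AMOTL2 and LATS2, the scaffold AJUBA, the coactivators YAP1 and WWTR1, and the DNA binding factor TEAD1. They were chosen by name with earlier results of these data known, and all 9 of the 60715 genes in the table passed the filter on low counts that left 16687 genes for testing. Poly(A) RNA came from MDA-MB-231, an established triple negative breast cancer line, in which every culture had been given lentivirus and sorted by fluorescence. The control carried RFP (n = 3), the Kir2.1 group carried KCNJ2(Kir2.1)-Y242F-EGFP, a substituted inwardly rectifying potassium channel (n = 3), and the remaining group was labelled with Kv1.5-T2A-his-EGFP, a voltage-gated potassium channel (n = 2, numbered 2 and 3). Replicate 1 of that group was not analysed here. The control differed from the channel groups in its fluorescent protein as well as in the channel, so channel and fluorescent protein cannot be told apart. The labels call the cultures separate biological replicates and do not say whether the cells were transduced separately, so the p-values reflect variation among cultures, which may share 1 transduction.

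In the Hippo pathway the kinases STK3 and STK4, with the scaffold SAV1, activate the kinases LATS1 and LATS2, which act with MOB1 proteins. LATS kinases phosphorylate the coactivators YAP1 and TAZ (the product of WWTR1), which are then held in the cytoplasm or degraded. When they are not phosphorylated they enter the nucleus, bind TEAD factors and switch on genes such as CCN1, CCN2 and ANKRD1. AMOTL2 and LATS2 are targets and inhibitors at once and so form a feedback loop, while AJUBA restrains LATS kinases. MDA-MB-231 is known for an inactivating mutation of NF2, an upstream activator of LATS, and for strong YAP and TAZ activity. The libraries measure mRNA and carry no measure of phosphorylation or of nuclear location.

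The promoter sequences show where the TEAD recognition letters lie in these genes. RefSeq windows of the 250 bases before the gene start (GRCh38.p14) were found for 7 of the 9 genes, as 10 windows, since AMOTL2, WWTR1 and AJUBA each have more than 1 start. CCN1 and TEAD1 had no window. GGAATG was searched on both strands, where it reads CATTCC. It was present in 11.9% of all 35116 windows, at least 2 times in 0.940% and at least 3 times in 0.0826%. The CCN2 window held 3 matches, starting 169, 104 and 95 bases before the gene start, and a TATAAA 32 bases before it. The whole CCN2 window is printed because it held the most matches, with each match in capitals, at chr6:131951373-131951622 on the minus strand.
CCN2: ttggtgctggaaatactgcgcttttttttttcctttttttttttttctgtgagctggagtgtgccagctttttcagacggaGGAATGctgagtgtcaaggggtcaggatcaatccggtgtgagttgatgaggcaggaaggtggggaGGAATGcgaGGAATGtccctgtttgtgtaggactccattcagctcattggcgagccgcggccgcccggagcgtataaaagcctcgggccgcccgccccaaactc

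The ANKRD1 window held 2 matches and the windows of YAP1, of 1 AMOTL2 start and of 1 AJUBA start held 1 each. LATS2 and both WWTR1 windows held none. Each match is printed with the bases around it, in capitals and 5′ to 3′ on the gene's strand, to set the sites side by side. The sites lie at chr10:90921290-90921319 and chr10:90921198-90921227 for ANKRD1 (minus strand), chr3:134374499-134374528 for AMOTL2 (minus strand), chr14:22976884-22976913 for AJUBA (minus strand) and chr11:102110273-102110302 for YAP1 (plus strand).
ANKRD1 far site: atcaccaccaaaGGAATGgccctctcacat
ANKRD1 near site: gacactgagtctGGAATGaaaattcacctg
AMOTL2: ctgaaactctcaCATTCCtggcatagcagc
AJUBA: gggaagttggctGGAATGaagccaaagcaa
YAP1: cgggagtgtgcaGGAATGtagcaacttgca
The ANKRD1 matches start 220 and 128 bases before the RefSeq gene start. GENCODE 29, the source of the gene positions given below, places the start of ANKRD1 further upstream, at 90921276. The near site thus lies inside the GENCODE gene. A match to TGANTCA, a loose pattern used here for AP-1 in which N is any base, starts 195 bases before the RefSeq start. The N is T in this match, which is not shown to be a site that AP-1 recognises. TGANTCA was present in 6.57% of all windows and in no other window of these genes. A match is a description of the letters and not evidence of binding.

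Library totals ran from 30970235 to 42753422 counts, and no library was a copy of another by its counts. KCNJ2 stood at 842.7 to 1384 CPM (CPM is the count divided by the TMM-scaled library total and scaled up) in the Kir2.1 libraries and at most 0.105 CPM in any other library. KCNA5, which encodes Kv1.5, had 0 counts over both Kv1.5-labelled libraries, which allows up to 0.0390 CPM, and 1 count over Kir2.1. That goes against the label as far as the human gene shows it, so every direction given for this group belongs to the libraries as labelled. Of 5 genes that mark this mesenchymal line (VIM, CD44, AXL, CAV1 and ZEB1) all were above 1 CPM in each group, with summed levels of 4690 to 6210 CPM in RFP, 5480 to 6600 CPM in Kir2.1 and 3320 to 4200 CPM in those labelled Kv1.5. VIM and CAV1 were lower in the libraries labelled Kv1.5 than in RFP (log2 fold change -0.90 and -1.64, edgeR adjusted p = 0.0129 and 0.000833). Leukocyte markers summed to at most 1.00 CPM in any library, with CD3E at 0 counts throughout. The 5 epithelial markers summed to 13.1 to 18.9 CPM in RFP, 7.97 to 11.2 CPM in Kir2.1 and 16.5 to 27.9 CPM in those labelled Kv1.5, with KRT6B at 0 counts. Most of each sum was EPCAM, which averaged 15.7, 9.79 and 21.1 CPM in these groups. Among receptor markers, ERBB2 averaged 56.7, 75.6 and 52.6 CPM, and ESR1 and PGR at most 0.0648 CPM in any group. PECAM1 alone ran from 1.31 to 20.1 CPM in RFP. Endothelial markers summed to 1.65 to 20.3 CPM in RFP, 7.5 to 10.2 CPM in Kir2.1 and 3.77 to 4.48 CPM in those labelled Kv1.5, where VWF had 0 counts, and fibroblast markers to 1.90 to 4.60 CPM over all libraries, with DCN at 0 counts in Kir2.1. Single markers differed within these sums: against RFP, LUM was higher in Kir2.1 (0.608 and 0.187 CPM on average, adjusted p = 0.0205) and in the libraries labelled Kv1.5 (1.45 CPM, adjusted p = 0.000613). PDGFRB was lower in the libraries labelled Kv1.5 (0.402 and 2.74 CPM, adjusted p = 0.00118), and ESRP1 was lower in Kir2.1 (0.0861 and 0.733 CPM, adjusted p = 0.00542). Against Kir2.1, EPCAM and ESRP1 were higher in the libraries labelled Kv1.5 (log2 fold change 1.11 and 3.44, edgeR adjusted p = 0.0215 and 0.00536). The part of these markers in the results below was not tested.

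In brief, ANKRD1 and AMOTL2 were lower in Kir2.1 than in RFP. WWTR1, TEAD1 and AMOTL2 were lower and ANKRD1 higher in the libraries labelled Kv1.5 than in RFP. Between the channel groups, CCN1 and ANKRD1 were higher and WWTR1 was lower in the libraries labelled Kv1.5. These are 2 of 9 genes for Kir2.1 against RFP, beside 20.5% of all tested genes called changed in that comparison (edgeR's quasi-likelihood test, Benjamini-Hochberg adjusted p under 0.05). They are 4 of 9 for the libraries labelled Kv1.5 against RFP, beside 33.7% of all genes. Between the channel groups they are 3 of 9, beside 16.8% of all genes (8.79% called higher and 7.99% called lower). A set of 9 genes is too small to read anything particular to the pathway from these counts. In bulk RNA, fewer cells with a transcript and less of it per cell cannot be told apart. The median log2 fold changes of the 9 genes were -0.50, 0.08 and 0.43 in these comparisons, and those of all tested genes -0.007, 0.019 and 0.005. Both comparisons against RFP use the same RFP libraries.

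**Figure D1:**
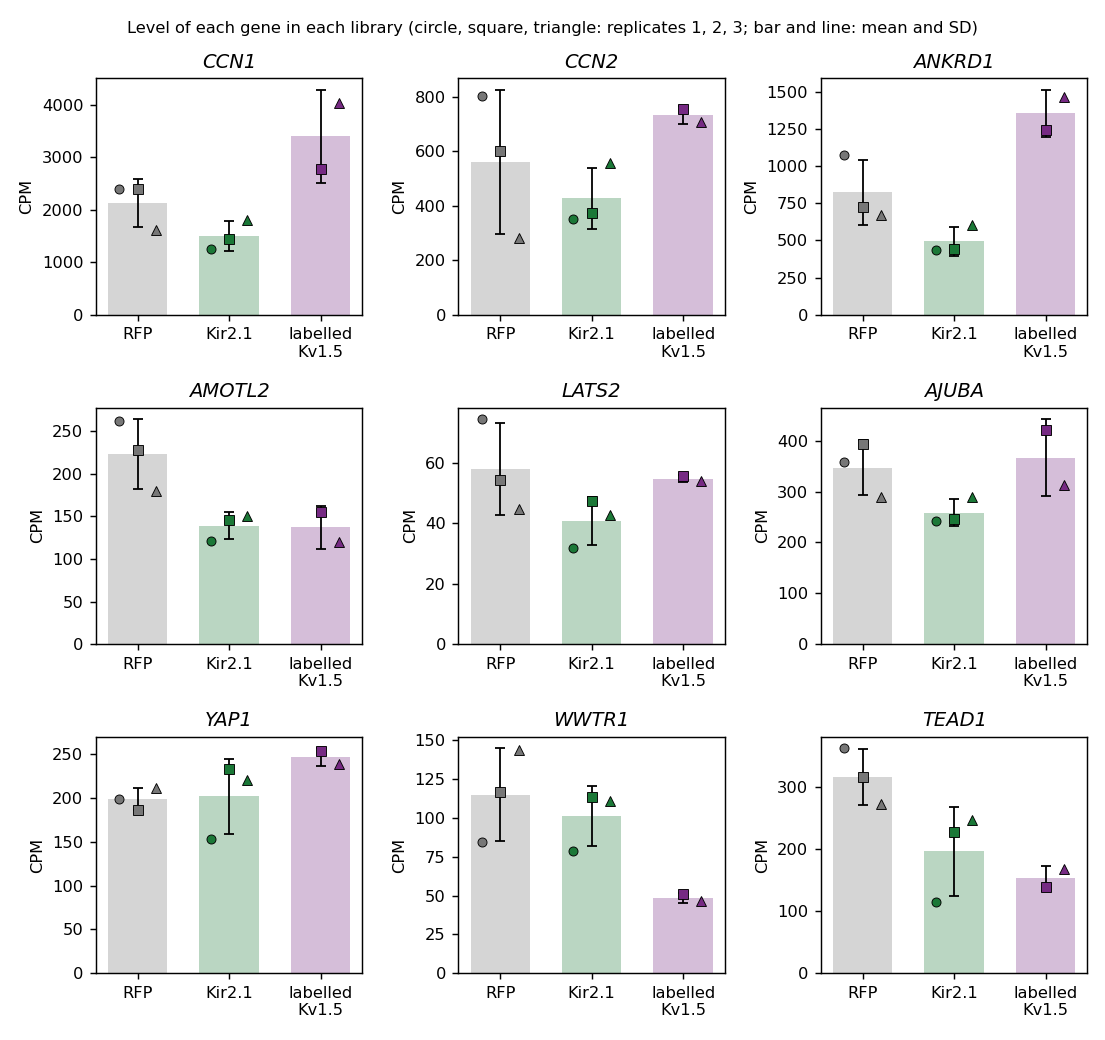
Level of each of the 9 genes in CPM (vertical axis, from 0) by group, with the mean as a bar, the SD as a line and each library as a point. ANKRD1 lies lowest in Kir2.1 and highest in the libraries labelled Kv1.5 with no overlap between groups, and WWTR1 is lowest in the libraries labelled Kv1.5 (50.7 and 46.3 CPM).

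Per length, on the scale of CPM per kilobase of the longest GENCODE transcript, the secreted and effector genes led in every group. In RFP, CCN1 stood at 929 ± 197, ANKRD1 at 416 ± 111, CCN2 at 240 ± 113, AJUBA at 81.4 ± 12.6, AMOTL2 at 49.4 ± 9.12, TEAD1 at 37.3 ± 5.31, YAP1 at 36.8 ± 2.31, WWTR1 at 22.8 ± 5.90 and LATS2 at 10.5 ± 2.75 (SD, n = 3). Library ranges overlapped between the neighbours ANKRD1 and CCN2, AMOTL2 and TEAD1, and TEAD1 and YAP1. The first 4 places were the same in Kir2.1 and in the libraries labelled Kv1.5, where CCN1 stood at 657 ± 125 and 1480 ± 387. WWTR1 (9.64 ± 0.62, n = 2) came last in the libraries labelled Kv1.5, beside LATS2 (9.95 ± 0.20), with overlapping ranges. The transcripts used by these cells may be shorter than the longest annotated ones, which would raise a level on this scale.

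YAP1, the founding coactivator (ENSG00000137693.14, GRCh38 chromosome 11, 102110461 to 102233423), stood at 198.6, 186.1 and 211.1 CPM in RFP, 153.0, 232.4 and 220.1 CPM in Kir2.1 and 253.2 and 238.8 CPM in those labelled Kv1.5. RFP and Kir2.1 overlapped, and both libraries labelled Kv1.5 were above all others. The log2 fold changes of YAP1 were 0.02 (SE 0.19, adjusted p = 0.946) for Kir2.1 against RFP and 0.31 (SE 0.21, adjusted p = 0.280) for the libraries labelled Kv1.5 against RFP, with edgeR, so no YAP1 difference passed. The Kir2.1 value ran from -0.09 to 0.19 over the alternatives and has no settled sign.

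WWTR1, which encodes TAZ, the paralog of YAP1 (ENSG00000018408.15, chromosome 3, 149517235 to 149736714), stood at 84.3, 116.4 and 143.6 CPM in RFP, 78.6, 113.1 and 110.6 CPM in Kir2.1 and 50.7 and 46.3 CPM in those labelled Kv1.5. RFP and Kir2.1 overlapped, while the libraries labelled Kv1.5 lay below every other library. WWTR1 fell 2.37-fold in them against RFP (log2 fold change -1.24, SE 0.26, edgeR adjusted p = 0.00308), and this call held under all 15 alternatives, between -1.43 and -1.06. WWTR1 was the 1 gene of the 9 among the 2178 in the authors' deposited table for that comparison. Its log2 fold change there was -1.24, from the same data. None of the 9 was among the 1139 genes in the authors' deposited table for Kir2.1. These lists are shorter than the 5624 and 3418 genes called here, so a gene missing from them is not shown to be unchanged. Against Kir2.1 the WWTR1 difference was -1.06 (SE 0.25, edgeR adjusted p = 0.0157). That call was lost without Kir2.1 replicate 2 (-0.96, adjusted p = 0.0587), Kir2.1 replicate 3 (-0.99, adjusted p = 0.0511) or Kv1.5 replicate 3 (-0.99, adjusted p = 0.0830). For Kir2.1 against RFP WWTR1 had a log2 fold change of -0.19 (SE 0.22, adjusted p = 0.582).

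The balance of the paralogs moved with WWTR1. Per kilobase, the ratio of WWTR1 to YAP1 was 0.456, 0.671 and 0.730 in RFP, 0.551, 0.522 and 0.539 in Kir2.1 and 0.215 and 0.208 in the libraries labelled Kv1.5. RFP and Kir2.1 overlapped, and the ratio was lower in both libraries labelled Kv1.5 than in any other. The sum of both genes was 53.6 to 67.7 CPM per kilobase in RFP, 44.0 to 65.5 in Kir2.1 and 53.4 to 57.0 in the libraries labelled Kv1.5, with all groups overlapping. Ratios and sums were not tested, since with 3 libraries against 3 or 2 an exact test over libraries cannot reach 0.05.

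TEAD1, a TEAD factor (ENSG00000187079.19, chromosome 11, 12674591 to 12944483), stood at 362.2, 315.3 and 272.3 CPM in RFP, 114.9, 228.3 and 247.4 CPM in Kir2.1 and 139.3 and 167.5 CPM in those labelled Kv1.5. Every channel library was below every RFP library. TEAD1 fell 2.06-fold in the libraries labelled Kv1.5 against RFP (log2 fold change -1.05, SE 0.30, edgeR adjusted p = 0.0176), a call lost without Kv1.5 replicate 2 (-0.91, adjusted p = 0.0927). For Kir2.1 against RFP the TEAD1 value was -0.69 (SE 0.26, adjusted p = 0.0805), and -0.41 (adjusted p = 0.186) without Kir2.1 replicate 1, which was the lowest of all libraries. With no filter on low counts it passed (-0.69, adjusted p = 0.0125). Between the channel groups it was -0.36 (SE 0.29, adjusted p = 0.421).

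TEAD3 rose 2.31-fold in Kir2.1 and 2.72-fold in the libraries labelled Kv1.5 against RFP, from 28.2, 23.7 and 17.9 CPM in RFP to 57.6, 54.2 and 49.7 CPM and to 59.0 and 67.4 CPM (log2 fold change 1.21, SE 0.20, adjusted p = 0.00113, and 1.44, SE 0.22, adjusted p = 0.000399, edgeR). The groups did not overlap and both calls held under all 15 alternatives. TEAD2 rose in Kir2.1 (log2 fold change 1.23, SE 0.30, adjusted p = 0.0126) from 10.7 ± 2.74 to 25.2 ± 2.44 CPM. TEAD2 was not called without RFP replicate 2 (1.17, adjusted p = 0.0575) or Kir2.1 replicate 1 (1.20, adjusted p = 0.0511). Among those labelled Kv1.5 TEAD2 stood at 10.3 and 24.3 CPM (log2 fold change against RFP 0.69, adjusted p = 0.125), and this value differed between the libraries: it was 1.19 (adjusted p = 0.00791) without replicate 2 of that group and -0.06 (adjusted p = 0.909) without replicate 3. TEAD4 had log2 fold changes of -0.66 (adjusted p = 0.0800) and -0.42 (adjusted p = 0.271) against RFP, where it ran from 26.3 to 56.8 CPM. Without RFP replicate 3 both TEAD4 differences passed, at -0.90 (adjusted p = 0.0130) and -0.67 (adjusted p = 0.0449), and without RFP replicate 1 they were -0.36 (adjusted p = 0.318) and -0.12 (adjusted p = 0.752). With no filter on low counts the TEAD4 difference of Kir2.1 from RFP passed as well (-0.67, edgeR adjusted p = 0.0263).

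Per kilobase, TEAD1 made up 47.9%, 50.6% and 54.2% of the summed TEAD family in RFP, 22.3%, 39.0% and 40.8% in Kir2.1 and 28.4% and 27.6% in the libraries labelled Kv1.5. TEAD3 made up 10.1% to 10.8%, 23.3% to 31.8% and 31.6% to 34.2%. Neither share overlapped between RFP and the channel libraries, and the family sum overlapped, at 59.3 to 89.3 CPM per kilobase in RFP, 60.7 to 71.5 in Kir2.1 and 57.8 to 71.6 in the libraries labelled Kv1.5. Per kilobase, TEAD3 stood at 19.8 and 22.6 in the libraries labelled Kv1.5, and TEAD1 at 16.4 and 19.8.

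**Figure D2:**
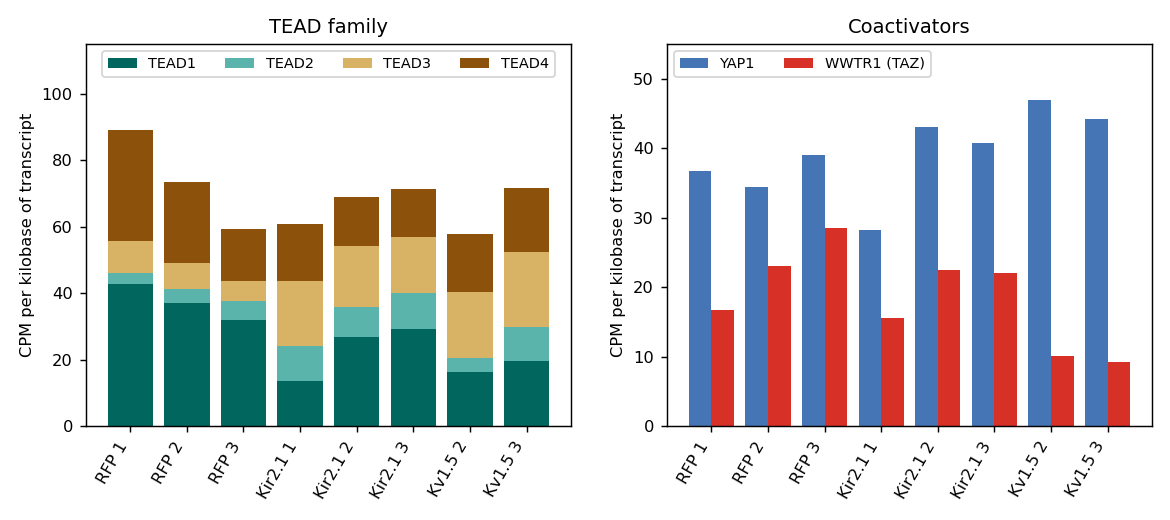
CPM per kilobase of the longest transcript in each library (vertical axes), stacked for the 4 TEAD genes on the left and side by side for YAP1 and WWTR1 on the right, with the 2 libraries labelled Kv1.5 at the end of each panel. The TEAD1 part is largest in RFP (47.9% to 54.2%), the TEAD3 part is larger in all channel libraries (23.3% or more), and WWTR1 is lowest in the libraries labelled Kv1.5.

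VGLL proteins compete with YAP1 and TAZ for TEAD factors or act with them. VGLL4, a competitor, stood at 57.4 ± 3.84 CPM in RFP, 53.7 ± 3.96 CPM in Kir2.1 and 51.4 ± 6.48 CPM in those labelled Kv1.5, with no call in any comparison. VGLL3 was higher in the libraries labelled Kv1.5 than in Kir2.1 (8.69 ± 3.47 and 2.64 ± 0.96 CPM, log2 fold change 1.71, SE 0.41, edgeR adjusted p = 0.0148), a call lost without Kir2.1 replicate 1 (1.54), Kir2.1 replicate 2 (1.60) or Kv1.5 replicate 3 (1.23). VGLL1 and VGLL2 did not pass the filter, with VGLL2 at 25 counts over RFP, 0 over Kir2.1 and 1 over the libraries labelled Kv1.5.

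ANKRD1, an ankyrin repeat protein used as a readout of YAP activity (ENSG00000148677.7, chromosome 10, 90912096 to 90921276), was the 1 gene of the 9 whose groups did not overlap in any comparison. It stood at 1076, 724.8 and 670.5 CPM in RFP, 435.8, 442.3 and 606.5 CPM in Kir2.1 and 1241 and 1466 CPM in those labelled Kv1.5. Kir2.1 was below RFP and the libraries labelled Kv1.5 above it. ANKRD1 was 2.74-fold higher in the libraries labelled Kv1.5 than in Kir2.1 (log2 fold change 1.45, SE 0.25, edgeR adjusted p = 0.00285), and this call held under all 15 alternatives, between 1.32 and 1.62. The differences from RFP were smaller and less stable: -0.74 in Kir2.1 (SE 0.23, adjusted p = 0.0375) and 0.72 in the libraries labelled Kv1.5 (SE 0.25, adjusted p = 0.0423). Without RFP replicate 1 or 2, or Kir2.1 replicate 1 or 2, the Kir2.1 fall of ANKRD1 was -0.50, -0.82, -0.65 and -0.66 and not called (adjusted p = 0.146, 0.0648, 0.128 and 0.145). The rise of ANKRD1 in the libraries labelled Kv1.5 was not called without RFP replicate 2 (0.63) or 3 (0.58), Kir2.1 replicate 1 or 2 (0.72 each), or Kv1.5 replicate 2 (0.84) or 3 (0.59), nor with only those groups fitted (0.72), at adjusted p = 0.0519 to 0.165.

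CCN1, also known as CYR61, is a matricellular integrin ligand (ENSG00000142871.18, chromosome 1, 85580761 to 85583962). It stood at 2388, 2386 and 1607 CPM in RFP, 1249, 1449 and 1812 CPM in Kir2.1 and 2773 and 4028 CPM in those labelled Kv1.5. Kir2.1 replicate 3 lay above RFP replicate 3, so these groups overlapped, while both libraries labelled Kv1.5 were above all others. CCN1 was 2.26-fold higher in the libraries labelled Kv1.5 than in Kir2.1 (log2 fold change 1.18, SE 0.26, edgeR adjusted p = 0.0105), a call lost without Kv1.5 replicate 3 (0.88, adjusted p = 0.0834). Against RFP the CCN1 values were -0.50 in Kir2.1 (SE 0.24, adjusted p = 0.153) and 0.68 in the libraries labelled Kv1.5 (SE 0.26, adjusted p = 0.0621). The latter passed with DESeq2 (adjusted p = 0.0490), with no filter on low counts (adjusted p = 0.0305) and without Kv1.5 replicate 2 (0.93, adjusted p = 0.0320). It did not pass in the other 12 alternatives, among them the fit without Kv1.5 replicate 3 (0.38, adjusted p = 0.364) and the replicate block (0.64, adjusted p = 0.119).

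CCN2, also known as CTGF, is a matricellular protein of fibrosis and wound repair (ENSG00000118523.6, chromosome 6, 131948176 to 131951373). It stood at 802.7, 601.2 and 279.6 CPM in RFP, 352.7, 372.3 and 554.9 CPM in Kir2.1 and 754.5 and 707.5 CPM in those labelled Kv1.5. RFP alone spanned the whole range of CCN2, 2.87-fold from lowest to highest, a spread wider than that of 97.8% of genes averaging 5 CPM or more. No CCN2 difference passed: the log2 fold changes were -0.40 (SE 0.32, adjusted p = 0.410) in Kir2.1 and 0.38 (SE 0.35, adjusted p = 0.437) in the libraries labelled Kv1.5 against RFP, and 0.78 (SE 0.35, adjusted p = 0.150) between the channel groups. Both libraries labelled Kv1.5 lay above all Kir2.1 libraries. Without RFP replicate 3, the lowest of all libraries for CCN2, these values were -0.72 (adjusted p = 0.0614), 0.05 (adjusted p = 0.900) and 0.77 (adjusted p = 0.0450), and with no filter on low counts the last was 0.77 (adjusted p = 0.0143). Without RFP replicate 1, the highest of all libraries for CCN2, they were -0.05 (adjusted p = 0.931), 0.73 (adjusted p = 0.123) and 0.78 (adjusted p = 0.0957).

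Among the other CCN genes, CCN3 (NOV) rose from 9.50, 7.20 and 7.51 CPM in RFP to 18.9, 27.4 and 17.0 CPM in Kir2.1 and 38.9 and 53.7 CPM in those labelled Kv1.5, with no overlap between groups. The log2 fold changes of CCN3 against RFP were 1.39 (SE 0.24, adjusted p = 0.00161) and 2.52 (SE 0.26, adjusted p = 3.37e-05) with edgeR, and neither call was lost under any of 15 alternatives. Between the channel groups CCN3 differed by 1.13 (adjusted p = 0.0120), a call lost without Kir2.1 replicate 3 (0.99) or Kv1.5 replicate 3 (0.88). CCN4 (WISP1) had 75 counts over RFP (2, 17 and 56 by replicate) and 0 over either channel group. By a floor of 3 counts over the group, pooled CCN4 was at least 22.6-fold lower in Kir2.1. It was at least 16.8-fold lower in the libraries labelled Kv1.5. RFP replicate 1 alone, at 0.048 CPM, lay near these floors (0.0289 and 0.0390 CPM). The edgeR calls of CCN4 (adjusted p = 0.0428 and 0.0475) were lost in 7 of 12 and 6 of 13 alternatives. Most CCN4 counts came from RFP replicate 3, without which the bounds were 8.22-fold and 6.09-fold. CCN5 and CCN6 did not pass the filter.

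AMOTL2, an angiomotin that binds and restrains YAP1 (ENSG00000114019.14, chromosome 3, 134355874 to 134375479), stood at 261.8, 228.1 and 179.8 CPM in RFP, 120.7, 146.2 and 151.1 CPM in Kir2.1 and 155.1 and 119.6 CPM in those labelled Kv1.5. Every channel library was below every RFP library, and the channel groups overlapped. AMOTL2 fell 1.60-fold in Kir2.1 (log2 fold change -0.68, SE 0.20, edgeR adjusted p = 0.0282) and 1.63-fold in the libraries labelled Kv1.5 (-0.70, SE 0.22, adjusted p = 0.0289) against RFP, and differed by -0.02 (SE 0.22, adjusted p = 0.961) between them. For Kir2.1 AMOTL2 was not called without RFP replicate 1 (-0.55) or 2 (-0.67) or Kir2.1 replicate 1 (-0.58), 2 (-0.72) or 3 (-0.74), at adjusted p = 0.0604 to 0.0989. For the libraries labelled Kv1.5 it was not called without RFP replicate 1 (-0.57) or 2 (-0.69) or Kv1.5 replicate 3 (-0.53), and with only those groups fitted (-0.70), at adjusted p = 0.0617 to 0.159. The direction of AMOTL2 against RFP was thus the opposite of ANKRD1's in the libraries labelled Kv1.5 and the same in Kir2.1.

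LATS2, the kinase that inactivates YAP1 and TAZ (ENSG00000150457.9, chromosome 13, 20973032 to 21061547), stood at 74.6, 54.3 and 44.9 CPM in RFP, 31.8, 47.2 and 42.8 CPM in Kir2.1 and 55.6 and 54.0 CPM in those labelled Kv1.5. RFP overlapped with both channel groups, and the libraries labelled Kv1.5 lay above Kir2.1. AJUBA, a LIM domain scaffold at cell junctions (ENSG00000129474.16, chromosome 14, 22971174 to 22982642), stood at 358.3, 394.5 and 288.6 CPM in RFP, 241.5, 246.3 and 288.3 CPM in Kir2.1 and 420.4 and 313.2 CPM in those labelled Kv1.5. The highest Kir2.1 library was just below the lowest RFP library for AJUBA. Neither gene was called in any comparison. The values for Kir2.1 against RFP were -0.51 for LATS2 (SE 0.22, adjusted p = 0.119) and -0.42 for AJUBA (SE 0.19, adjusted p = 0.138). For the libraries labelled Kv1.5 against RFP they were -0.08 (SE 0.25, adjusted p = 0.832) and 0.08 (SE 0.21, adjusted p = 0.806), and between the channel groups 0.43 (SE 0.24, adjusted p = 0.243) and 0.50 (SE 0.21, adjusted p = 0.124).

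**Figure D3:**
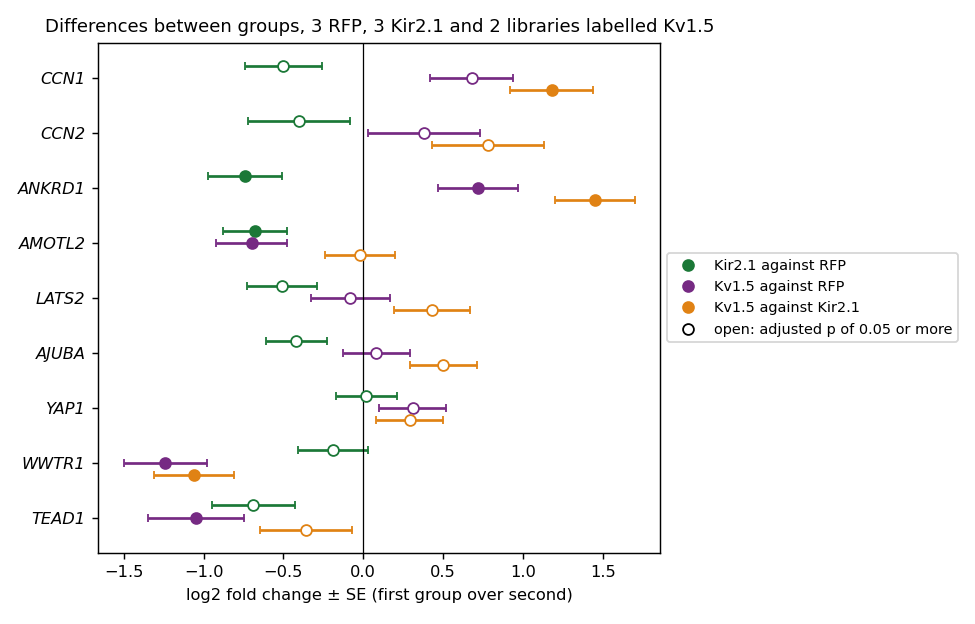
Log2 fold change with its SE (horizontal axis) for each of the 9 genes in the 3 comparisons, filled where the adjusted p is under 0.05. ANKRD1, CCN1 and CCN2 lie to the left for Kir2.1 against RFP and to the right for the libraries labelled Kv1.5, with ANKRD1 at -0.74 and 0.72, while AMOTL2 lies left in both (-0.68 and -0.70). CCN1 and CCN2 are not called in either comparison against RFP.

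The groups did not overlap in CPM for 4 of the 9 genes in Kir2.1 against RFP (44.7% of all tested genes), for 6 in the libraries labelled Kv1.5 against RFP (54.2%) and for 7 between the channel groups (47.7%). Across the 8 libraries, log2 levels of CCN1 and ANKRD1 correlated at Pearson r = 0.943, CCN1 and CCN2 at 0.809, and AMOTL2 and TEAD1 at 0.842, while WWTR1 ran against CCN1 (-0.676) and ANKRD1 (-0.694). These values are descriptions over 8 libraries in 3 groups and carry no p. By the same measure over 10696 genes averaging 5 CPM or more, the genes most like CCN1 were ATF3, a stress-induced transcription factor (0.975), SLC39A14, a metal ion transporter (0.965), and CCNB1IP1 (0.960). ANKRD1 ranked 11 of them. Those most like CCN2 were UAP1, an enzyme of amino sugar synthesis (0.938), NFATC2, a calcium-regulated transcription factor (0.927), and STARD13 (0.909), with CCN1 at rank 46 and ANKRD1 at rank 70.

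Replicates differed in the same way for many of the 9 genes. Kir2.1 replicate 1 was the lowest Kir2.1 library for all 9, as it was for 40.2% of all tested genes. RFP replicate 3 was the lowest RFP library for 7 of them (39.4% of all genes) and the highest for the other two, YAP1 and WWTR1. Without Kir2.1 replicate 1 the Kir2.1 differences from RFP were -0.38 for CCN1, -0.27 for CCN2, -0.65 for ANKRD1, -0.58 for AMOTL2, -0.36 for LATS2, -0.37 for AJUBA, 0.19 for YAP1, -0.03 for WWTR1 and -0.41 for TEAD1, none of them called. The levels of TEAD1 in Kir2.1 spanned 2.15-fold, wider than 97.5% of genes at 5 CPM or more, and those of YAP1 in RFP 1.13-fold, with 14.7% of genes narrower.

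The wider pathway was read from lists of its known genes, described by counts. Of 26 Hippo kinases and upstream regulators (AMOTL2, LATS2 and AJUBA among them), 4 rose and 3 fell in Kir2.1 against RFP, beside 12.2% of all genes called higher and 8.26% called lower. For the libraries labelled Kv1.5 against RFP 4 rose and 7 fell, beside 18.1% and 15.6%. Between the channel groups 2 were higher and 3 lower in those libraries, beside 8.79% and 7.99%. The median log2 fold changes were -0.25, -0.16 and 0.06. WWC3, a relative of the LATS activator KIBRA, rose in both, from 41.8 ± 1.96 CPM in RFP to 117.7 ± 13.1 CPM in Kir2.1 and 125.7 ± 19.4 CPM in those labelled Kv1.5 (SD, n = 3, 3 and 2, log2 fold change 1.49 and 1.59, edgeR adjusted p = 9.88e-05 and 8.3e-05). TAOK3, a kinase that can act upstream of the Hippo kinases, rose by 0.93 (adjusted p = 0.00376) and 1.66 (adjusted p = 9.73e-05). MAP4K4, which can phosphorylate LATS kinases, rose from 242.4 ± 43.2 to 546.3 ± 91.6 CPM in Kir2.1 (log2 fold change 1.17, adjusted p = 0.00313). Its rise of 0.88 in the libraries labelled Kv1.5 (adjusted p = 0.0154) was not called when RFP replicate 2 (0.84) or Kv1.5 replicate 2 (0.53) was left out. WTIP, an AJUBA relative, rose by 1.14 and 2.23 (adjusted p = 0.0444 and 0.00134), and its Kir2.1 rise was not called when any of RFP replicates 2 (1.16) and 3 (0.80) or Kir2.1 replicates 1 (1.01), 2 (1.23) and 3 (1.19) was left out.

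In the other direction, STK4, a core Hippo kinase, fell 1.75-fold in Kir2.1, from 182.9, 172.7 and 171.7 CPM in RFP to 74.4, 112.9 and 114.3 CPM (log2 fold change -0.81, SE 0.19, edgeR adjusted p = 0.0106), and stood at 139.7 and 146.0 CPM in those labelled Kv1.5 (adjusted p = 0.305). MOB1B, a LATS cofactor, fell in Kir2.1 (-0.69, adjusted p = 0.0317), which missed the threshold when RFP replicate 1 (-0.70) or 3 (-0.54) or Kir2.1 replicate 1 (-0.61) or 3 (-0.62) was left out. PTPN14, a phosphatase that binds YAP1 and is itself counted among its targets, fell in the libraries labelled Kv1.5 from 378.9, 412.6 and 294.8 CPM in RFP to 106.8 and 139.8 CPM (log2 fold change -1.55, SE 0.29, adjusted p = 0.00161), against 163.8, 298.1 and 296.9 CPM in Kir2.1. NF2, which encodes merlin, fell from 17.6, 14.4 and 10.8 CPM to 8.29 and 6.27 CPM there (-0.97, adjusted p = 0.0157), and at -0.79 without RFP replicate 1 or -0.78 without Kv1.5 replicate 3 it was not called. TAOK2, another kinase upstream of the Hippo kinases, also fell in these libraries (-0.95, adjusted p = 0.00502). Against Kir2.1, FRMD6, a membrane-linked Hippo activator, was higher in them (491.3 and 234.7 CPM on average, log2 fold change 1.07, adjusted p = 0.0117). AMOTL1, an angiomotin like AMOTL2, was lower than in Kir2.1, at 57.3 and 86.8 CPM against 124.9, 193.1 and 183.4 CPM (-1.21, adjusted p = 0.00831). In RFP AMOTL1 stood at 119.6, 132.1 and 103.8 CPM. Its difference from RFP was -0.72 in the libraries labelled Kv1.5 (edgeR adjusted p = 0.0426), a call lost in 6 of 15 alternatives. In Kir2.1 it was 0.50 (adjusted p = 0.128).

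Of 22 genes of a commonly used YAP and TAZ target signature, among them CCN1, CCN2, ANKRD1, AMOTL2 and LATS2, none rose and 3 fell in Kir2.1 against RFP (12.2% and 8.26% of all genes), with a median log2 fold change of -0.36. For the libraries labelled Kv1.5 against RFP 2 rose and 5 fell (18.1% and 15.6% of all genes), with a median of -0.09. Between the channel groups 4 were higher and 2 lower (8.79% and 7.99% of all genes), with a median of 0.13. GADD45A, a growth arrest and DNA damage gene, rose from 73.7, 48.2 and 34.5 CPM in RFP to 348.6 and 190.8 CPM in those labelled Kv1.5 (log2 fold change 2.37, SE 0.32, edgeR adjusted p = 0.000199), with 47.3, 42.0 and 59.1 CPM in Kir2.1. CCDC80, a matrix protein, fell from 264.5, 118.1 and 74.7 CPM to 37.6 and 20.5 CPM (-2.39, SE 0.49, adjusted p = 0.00435), with a value of -1.73 without RFP replicate 1. NUAK2, a kinase of the AMPK family, fell in both (-0.97, adjusted p = 0.0440, and -1.36, adjusted p = 0.0124). The fall of NUAK2 in Kir2.1 was not called without RFP replicate 2 (-0.84) or 3 (-0.99) or Kir2.1 replicate 1 (-0.90), 2 (-0.94) or 3 (-1.06), and the other without Kv1.5 replicate 3 (-0.82). Without Kv1.5 replicate 2 NUAK2 stood at -2.22 against RFP. The called target genes went both ways in the libraries labelled Kv1.5, with ANKRD1 and GADD45A higher and AMOTL2, PTPN14, CCDC80, NUAK2 and RBMS3 lower than in RFP. RBMS3 was named to complete that count.

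**Figure D4:**
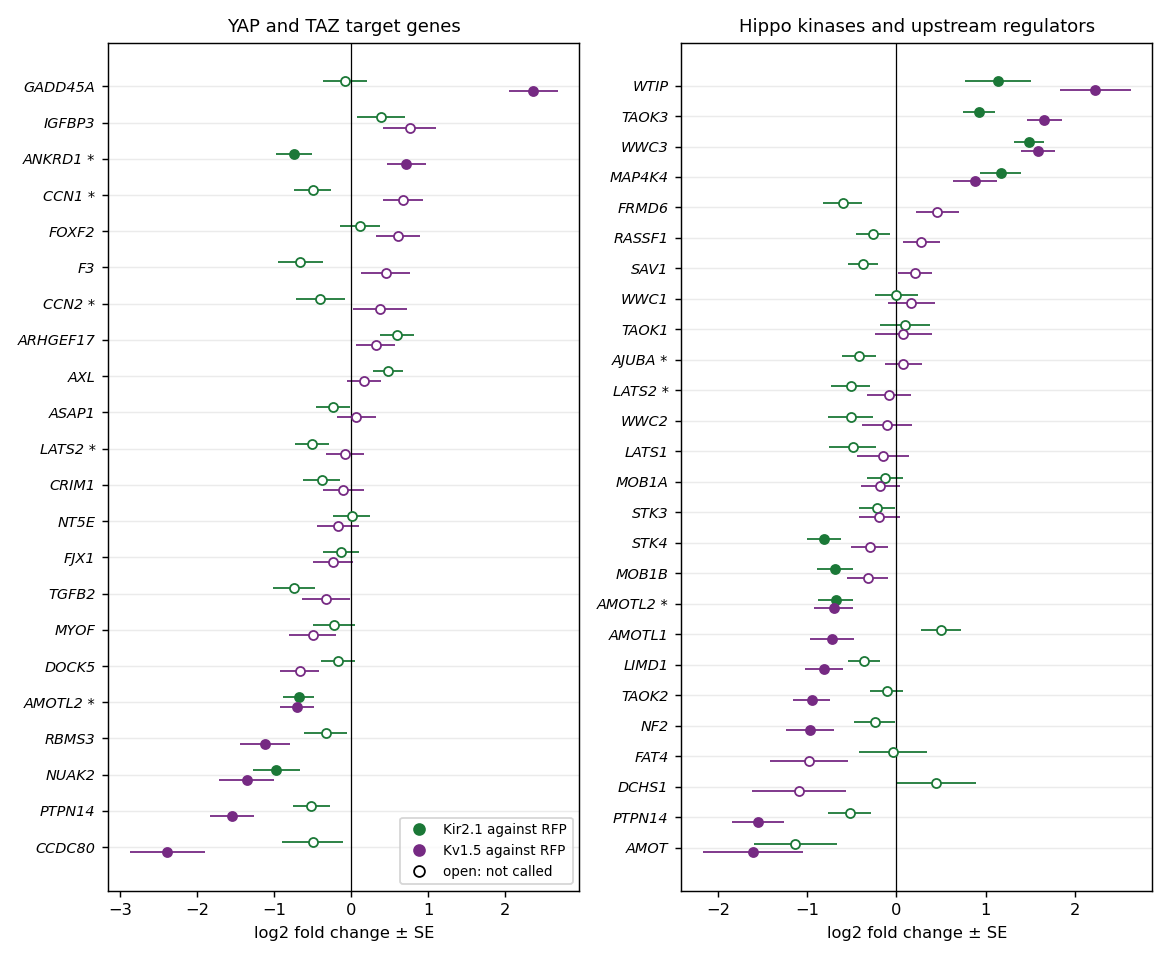
Log2 fold change against RFP with its SE (horizontal axes) for 22 target genes (left) and 26 Hippo kinases and regulators (right), ordered by the libraries labelled Kv1.5, filled where called, with an asterisk on the genes among the 9. In the libraries labelled Kv1.5 the targets run from 2.37 (GADD45A) to -2.39 (CCDC80), and WWC3 lies to the right of 0 in both comparisons (1.49 and 1.59).

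SRF, the factor that drives actin cytoskeleton genes and shares CCN1 and CCN2 as targets with YAP1, was set beside the pathway. SRF rose in Kir2.1 from 105.1, 99.3 and 85.1 CPM in RFP to 168.2, 157.1 and 168.7 CPM (log2 fold change 0.77, edgeR adjusted p = 0.0397), a call lost without any 1 of these 6 libraries (0.68 to 0.83). It rose to 171.8 and 364.5 CPM in those labelled Kv1.5 (1.47, adjusted p = 0.00131, and 0.83 without Kv1.5 replicate 3). Of 13 tested genes of its list, SRF included, 1 rose and 2 fell in Kir2.1 (12.2% and 8.26% of all genes). The median log2 fold change there was 0.05. In the libraries labelled Kv1.5, 1 rose and 6 fell (18.1% and 15.6% of all genes), and the median was -0.82. CNN2, a calponin, fell there from 236.7 ± 50.0 to 66.4 ± 10.6 CPM (-1.83, adjusted p = 0.000191) and CALD1, the actin binding protein caldesmon, from 111.1 ± 7.72 to 51.3 ± 7.79 CPM (-1.11, adjusted p = 0.00354). TAGLN, the smooth muscle protein transgelin, stood at 25.3, 8.61 and 5.64 CPM in RFP, 5.04, 2.38 and 2.93 CPM in Kir2.1 and 2.00 and 2.11 CPM in those labelled Kv1.5. TAGLN fell against RFP by 1.94 and by 2.68 on the log2 scale (adjusted p = 0.0187 and 0.00614), and without RFP replicate 1 the values were -1.05 (adjusted p = 0.0618) and -1.80, the latter still called. Its other losses of a call came without Kir2.1 replicate 2 (-1.73) or 3 (-1.83) and, for the libraries labelled Kv1.5, without Kv1.5 replicate 2 (-2.64) or 3 (-2.72). TPM1, a tropomyosin, fell against RFP in Kir2.1 (-0.77, edgeR adjusted p = 0.0367) and in the libraries labelled Kv1.5 (-0.86, adjusted p = 0.0261). Between the channel groups TPM1 differed by -0.10 (adjusted p = 0.830). Its fall in Kir2.1 was not called without RFP replicate 1 (-0.52) or Kir2.1 replicate 2 (-0.68) or 3 (-0.70). The other fall was not called without RFP replicate 1 (-0.62) or with only those groups fitted (-0.86), and was -0.62 without Kv1.5 replicate 3. ACTG1, which encodes cytoplasmic actin, was lower in the libraries labelled Kv1.5 than in Kir2.1 (-1.06, adjusted p = 0.0390), and was not called in 5 of the 8 fits that left out a library (-0.79 to -1.15 in those 5).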

How the data were processed

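The authors deposited raw counts as whole numbers for 60715 Ensembl genes in 8 libraries. Per the labels' protocols, libraries were stranded and reads single-end. The submitters' processing notes name FastQC, Trimmomatic, STAR, edgeR and GRCh38. The sources used here name no counting method or strand setting, so antisense reads cannot be told apart. Genes overlapping the 9 averaged at most 0.191 CPM. The authors' deposited comparison tables give log2 fold changes, p-values and a ranking score that was not used.

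The 9 genes and the lists were chosen with earlier results of these data known. Symbols matched 60445 IDs, positions came from GENCODE 29 and promoters from RefSeq. The counts were tested with edgeR 4.0.16 in R 4.3.3 (filterByExpr, TMM, robust quasi-likelihood, 1 fit over 3 groups, 5 residual degrees of freedom), with Benjamini-Hochberg adjustment over 16687 genes. The design had assumed 9 libraries. The SE comes from the F statistic. Further named genes were all TEAD, VGLL and CCN genes and, from the Hippo, target and SRF lists, up to 3 called genes that rose most and 3 that fell most in each comparison at a mean of 5 CPM or more. Likeness used log2(CPM + 1). The test was checked on simulated data. Alternatives, among them DESeq2 1.42.0 and limma 3.58.1, are described in the closing section.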

Additional observations from a re-analysis of the deposited data

How the results depend on the processing

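Of the 9 genes called changed, 2 for Kir2.1 against RFP became 0 to 2 over the libraries left out in turn, 4 for the libraries labelled Kv1.5 against RFP became 2 to 4 (2 with only the groups compared), and 3 between the channel groups became 1 to 4. Over all genes, leaving out libraries gave 1975 to 4519 calls for Kir2.1 against RFP (3418 with all), 3912 to 5536 for Kv1.5 against RFP (5624) and 1384 to 3861 for Kv1.5 against Kir2.1 (2801). Where 1 Kv1.5 library was left out, the other was assumed to vary like the remaining groups. With RLE or upper quartile factors, no filter, DESeq2, limma voom, only the groups compared or a replicate block, 183 of 189 values for the 9 genes kept their side of the threshold, 2 lost and 4 gained a call, and no called value changed sign. Uncalled values near 0 did change sign, such as YAP1 for Kir2.1 against RFP (-0.01 with RLE factors). The replicate block gave 2, 4 and 3 called genes among the 9, and 3707, 5565 and 2729 over all genes. For RFP and Kir2.1, deviations of same-numbered libraries correlated at r = 0.181, -0.094 and 0.157, and those of differently numbered ones at -0.218 to 0.085. Same-numbered pairs with a library labelled Kv1.5 stood at -0.111 to 0.096. Deviations were taken from means of 3 or 2 libraries, which constrains these values. They cannot show whether the numbers pair libraries. Causes of the changes were not tested. A difference that was not called is not shown to be absent.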
